A study of Mus musculus with 6 samples.

Results

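The genes described here are 6 genes of the contractile apparatus (Acta2, Myh11, Tagln, Cnn1, Des and Actg2), 2 surface genes of pericytes (Pdgfrb and Cspg4) and 2 cytoplasmic actins (Actb and Actg1). They were chosen by name, with earlier results of these data known, and were found by Ensembl identifier among the 47729 genes counted in lung endothelial cells (ECs) of mice infused with angiotensin II (AngII). All 10 were among the 14625 genes that passed edgeR's filter on low counts. AngII is a peptide hormone that constricts vessels and raises blood pressure, and the study asked how the loss of leene, the putative mouse counterpart of the human long noncoding RNA LEENE, alters the ECs of such mice. The groups were 3 libraries of wild-type (WT) littermates and 3 libraries of leene-knockout (KO) mice, in which CRISPR deleted the homologous region in every tissue. Both groups were male C57BL6 mice, 14 weeks old per the labels, on normal chow, and both received AngII at 1000 ng/kg/min from an osmotic pump for 2 weeks, so there was no group without AngII. The sorted cells are given as CD31-enriched in the labels and as CD144-sorted in the study's methods, and the labels speak of cells pooled from 3 mice per group. Whether a library is 1 mouse or a pool was not settled, so n counts libraries, and p-values measure the spread between libraries, which may be technical. The genotypes are those of the labels, because the counted annotation does not list the leene genes.

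Smooth muscle cells wrap arteries, arterioles and veins and tighten them through filaments of smooth muscle actin (Acta2, Actg2) pulled by smooth muscle myosin (Myh11), with transgelin (Tagln) and calponin (Cnn1) bound to actin and desmin (Des) forming intermediate filaments. Pericytes sit on capillaries, carry the receptor for platelet-derived growth factor B (Pdgfrb) and the proteoglycan NG2 (Cspg4), and are recruited by the ligand that ECs release. Beta-actin (Actb) and gamma-actin (Actg1) build the cytoskeleton of nearly every cell, ECs included, so they were the counterpart to the contractile genes. None of the contractile genes or pericyte genes is a marker of ECs, although actin and transgelin genes can be transcribed in ECs.

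Total counts lay between 24464324 and 35184063 per library. The EC markers were present, with 15 of 15 passing the filter and a summed level of 2440 to 4435 CPM (counts scaled to a common library size, here by edgeR's TMM method) in WT and 2758 to 4441 CPM in KO. The preparations also held transcripts of other lung cells: 5 alveolar type II markers summed to 4934, 46390 and 14404 CPM over WT replicates 1, 2 and 3, and to 36566 to 44951 CPM in KO. The 10 fibroblast markers summed to 685 CPM in WT replicate 1 and to 995 to 1309 CPM in the other 5 libraries. WT replicate 1 was the lowest of the 6 libraries in all 3 of these sums. It was also the lowest for the 6 macrophage markers, whose groups overlapped. These summed to 1465, 13088 and 4646 CPM over WT replicates 1, 2 and 3, and to 11653, 13421 and 11481 CPM in KO. Further marker sums separated the groups: the 5 B cell markers summed to 6.63 to 15.8 CPM in WT and to 54.8 to 59.8 CPM in KO, and the 4 mesothelial markers to 70.0, 134 and 115 CPM in WT and to 180, 155 and 158 CPM in KO. All 5 B cell markers were higher in every KO library than in any WT library, with 2 called by edgeR (Ms4a1 and Cd79a), 4 by DESeq2 and 5 at an unadjusted p under 0.05. Of the mesothelial markers this held for 1 of 4, Msln (log2 fold change 0.93, adjusted p = 0.365, edgeR), and 0 were called by edgeR or DESeq2. In such bulk libraries, fewer cells of a type and less RNA per cell cannot be told apart.

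The 4 actin genes among the 10 are alike in coding sequence. The stretches of read length that they share with each other and with other loci were therefore examined. The last 60 coding bases before the stop codon are shown here, from the annotated transcripts on GRCm38, to show where the 4 actin genes differ in this stretch. All 4 genes lie on the minus strand, the sequences run 5′ to 3′, and capitals mark the 15 positions at which not all 4 genes have the same base.
Acta2 (chr19:34241670-34241729): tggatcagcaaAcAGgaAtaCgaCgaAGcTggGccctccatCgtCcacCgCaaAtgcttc
Actg2 (chr6:83512988-83513047): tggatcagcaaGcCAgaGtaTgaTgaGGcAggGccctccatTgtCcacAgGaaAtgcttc
Actb (chr5:142903801-142903860): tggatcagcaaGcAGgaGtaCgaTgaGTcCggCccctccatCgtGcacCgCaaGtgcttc
Actg1 (chr11:120346393-120346452): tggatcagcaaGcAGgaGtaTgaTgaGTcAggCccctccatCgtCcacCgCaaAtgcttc

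Over the whole coding sequence, Actb and Actg1 were 88.7% identical, with a longest identical run of 62 bases. Acta2 and Actg2 were 84.2% identical, and their longest identical run was 29 bases, which is shorter than a 50-base read. The reads of these libraries were single and 50 bases long, and reads that aligned to several places were not counted. Of all 50-base windows of its annotated transcripts, Actg1 shared 36.3% with a transcript of another locus, among them 12 pseudogenes, and Actb shared 9.12%. Pseudogenes alone held the same 36.3% of Actg1, while protein-coding transcripts of Actb held 1.02%. Of the windows of Actb, 6.14% were shared with Lrrc58 and 1.03% with protein-coding transcripts of Actg1. Acta2 shared 0.326% and Myh11 0.340%, and Tagln, Cnn1, Des, Actg2, Pdgfrb and Cspg4 shared none. With up to 1 mismatch allowed, which was computed for the 4 actins, the share was 37.3% for Actg1, 21.8% for Actb, 1.21% for Acta2 and 0.942% for Actg2. Genes that overlap the same locus were left out of this count of windows. The level of Actg1 can therefore be too low by an amount that differs from that of Actb, and its level relative to the other genes is uncertain. Per kilobase, Actb was 4454% to 14784% of Actg1 over the 6 libraries. The part of uncounted reads in this gap was not tested.

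Set in order of CPM per kilobase of exon, averaged over the 6 libraries, Actb was highest at 558, followed by Tagln at 36.9, Acta2 at 18.9, Des at 18.3, Pdgfrb at 8.76, Actg1 at 6.13, Myh11 at 3.54, Actg2 at 2.05, Cspg4 at 1.81 and Cnn1 at 0.943. The lowest library of Actb, at 446 CPM per kilobase, was above the highest library of every other gene. Tagln was above Acta2 in each of the 6 libraries. Des was likewise above Pdgfrb in each of the 6 libraries, although their ranges of 11.8 to 22.7 and 4.07 to 12.9 CPM per kilobase overlapped. In each of the other 6 pairs of neighbors, the order was turned in at least 1 library, and whether these neighbors differ was not tested. Acta2 and Des, for example, spanned 12.5 to 24.6 and 11.8 to 22.7 CPM per kilobase. Des was the higher of the pair in WT replicate 3 and in KO replicates 1 and 3.

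**Figure D1:**
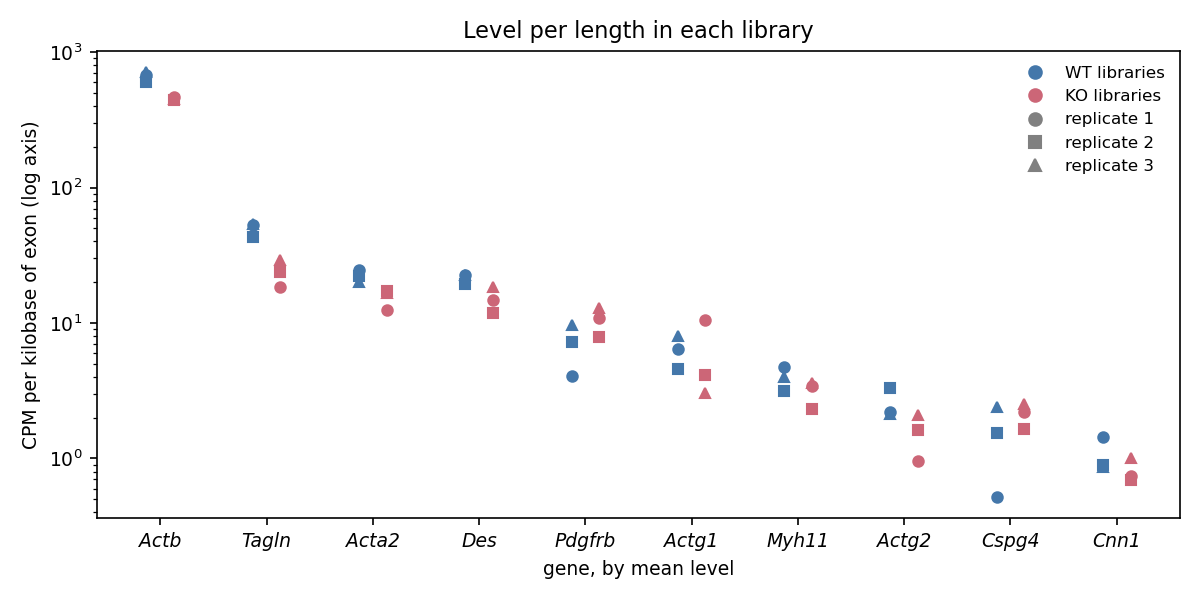
Level of the 10 genes in CPM per kilobase of exon on a log axis, with the genes ordered by mean level and each point a library (blue, WT; red, KO; circle, square and triangle for replicates 1, 2 and 3). Actb, at 446 to 713, stands above all other genes, and Cnn1, at 0.699 to 1.45, is at the bottom.

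The contractile genes were all lower on average in KO than in WT lung ECs, with log2 fold changes from -1.06 to -0.34 and a median of -0.53, whereas the median of all genes tested was 0.03. Both pericyte genes were higher on average, by 0.60 for Pdgfrb and 0.54 for Cspg4 on the log2 scale, and both cytoplasmic actins were lower, with log2 fold changes of -0.55 for Actb and -0.12 for Actg1. Of the 10 genes, 0 passed an adjusted p of 0.05 over all genes in edgeR's quasi-likelihood test, which called 0.109% of all genes. At an unadjusted p under 0.05, 4 of the 10 were lower in KO (Tagln, Acta2, Des and Actb) and 0 were higher, and 4.68% of all genes were lower in KO at that level. Every KO library was below every WT library for 5 of the 10 (Acta2, Tagln, Des, Actg2 and Actb), and 9.2% of all genes were separated in this way. DESeq2, run on the same counts, called 2 of the 10 at an adjusted p under 0.05 (Tagln and Actb, both lower in KO) and 1.21% of the genes to which it gave an adjusted p.

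**Figure D2:**
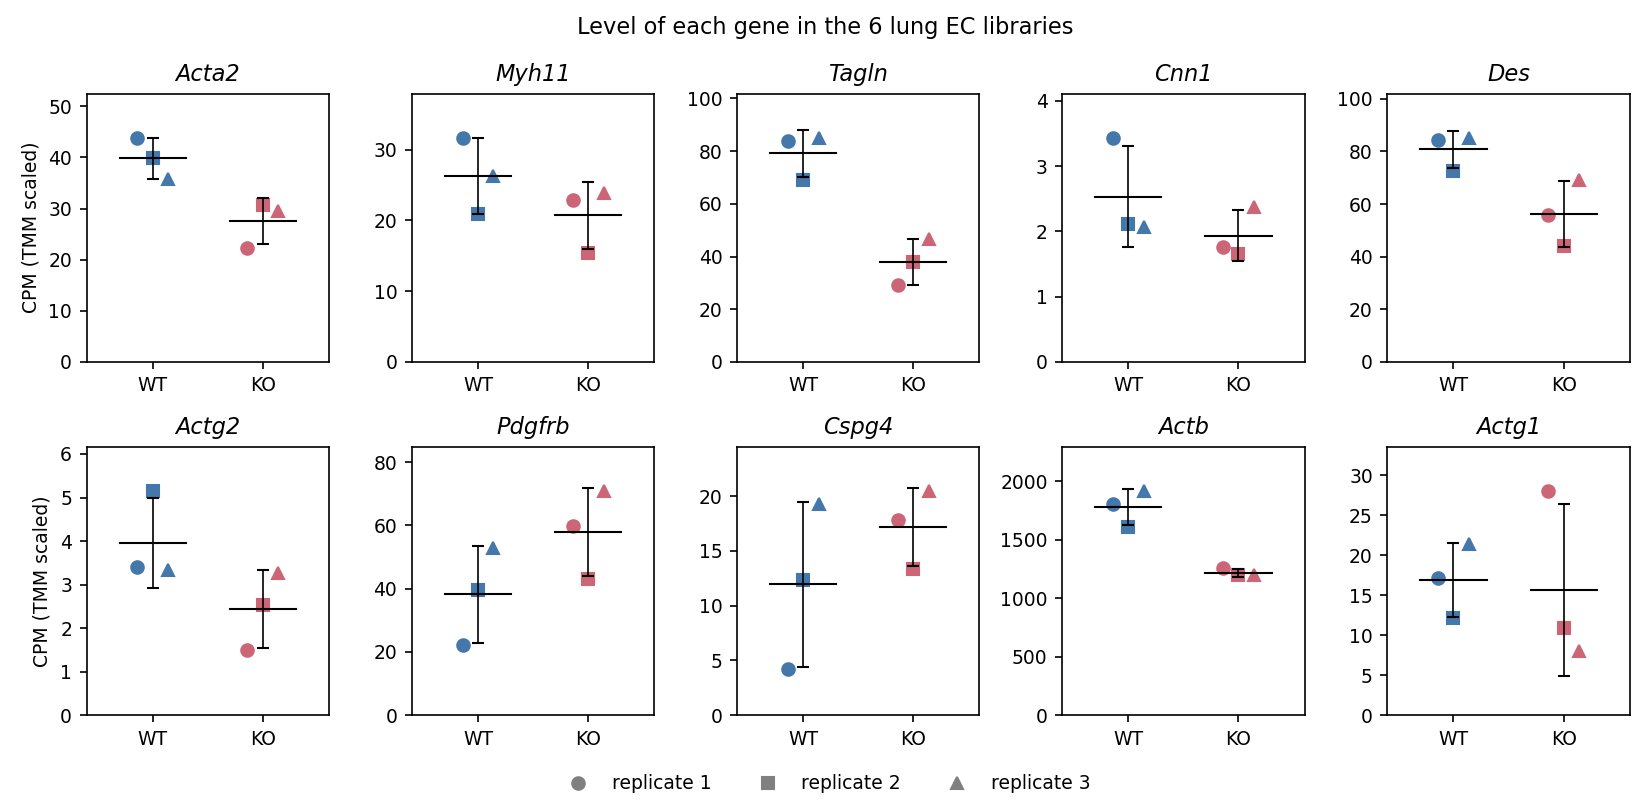
CPM (TMM scaled) of each of the 10 genes in the 3 WT (blue) and 3 KO (red) libraries, with the group mean as a horizontal line, its SD as the error bar (n = 3) and the replicate number as the symbol. Red lies wholly below blue for Acta2, Tagln, Des, Actg2 and Actb, while the groups overlap for the other 5 genes.

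Tagln, which encodes the actin-binding protein transgelin (SM22-alpha), had the largest difference of the 10 (chr9:45929628-45936058, GRCm38, minus strand). The WT libraries 1, 2 and 3 held 83.8, 68.9 and 84.9 CPM and the KO libraries 1, 2 and 3 held 29.3, 37.8 and 46.5 CPM, and every list of 3 values below is in this order. The lowest WT library was above the highest KO library by more than the SD of either group. The group means were 79.2 ± 8.93 CPM in WT and 37.9 ± 8.61 CPM in KO (SD, n = 3 each), or 0.478 times the WT level. The log2 fold change came to -1.06 (standard error 0.19, 95% interval -1.51 to -0.62), with a p of 0.000602 that ranked it number 63 of the 14625 genes and an adjusted p of 0.14 in edgeR's quasi-likelihood test (Benjamini-Hochberg). DESeq2 gave -1.10 with an adjusted p of 0.000497. The quasi-likelihood test called Tagln without WT replicate 2 (-1.19, adjusted p = 0.0245), with scaling to total counts (-1.23, adjusted p = 0.0249) and without a filter on low counts (-1.07, adjusted p = 0.00499). In that order, these settings called 791, 123 and 152 genes in all, against 16 without these changes. Over all 15 alternatives the adjusted p of Tagln ran from 0.000497 to 0.53.

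Acta2, the smooth muscle alpha-actin by which smooth muscle cells are usually recognized, was measured at 43.7, 39.9 and 35.8 CPM in WT and 22.3, 30.7 and 29.5 CPM in KO (chr19:34241090-34255336). The groups did not overlap, with KO replicate 1 the lowest library and WT replicate 1 the highest. The means were 39.8 ± 3.96 CPM and 27.5 ± 4.54 CPM (SD, n = 3 each), and the log2 fold change was -0.53 ± 0.16 (SE). It was not called (edgeR's quasi-likelihood test, adjusted p = 0.363, and DESeq2, adjusted p = 0.217).

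Des, the intermediate filament protein of muscle cells that pericytes also make, was at 84.6, 72.7 and 85.0 CPM in WT and 55.7, 44.2 and 69.2 CPM in KO (chr1:75360329-75368579). Its groups did not overlap, and KO replicate 3 was the closest to the WT libraries. The log2 fold change was -0.52 ± 0.18 (SE, adjusted p = 0.423, edgeR's quasi-likelihood test). Heart muscle of the pulmonary veins also expresses Des. The 11 heart muscle markers examined summed to 14.3, 71.3 and 49.0 CPM in WT and 27.6, 26.2 and 19.6 CPM in KO, with 10 of 11 lower on average in KO, a median difference of -0.73 on the log2 scale, overlapping groups and none of the 11 at 0 in every library. The part of heart muscle in the level of Des was not tested.

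Actg2, the gamma-actin of visceral and some vascular smooth muscle, was a low gene with 3.40, 5.14 and 3.33 CPM in WT and 1.5, 2.54 and 3.28 CPM in KO (chr6:83512905-83536265). Its groups did not overlap but nearly touched, with KO replicate 3 just under WT replicate 3. It rested on 35 to 175 counts per library. Its log2 fold change was -0.69 ± 0.34 (SE, adjusted p = 0.516, edgeR).

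Myh11, the smooth muscle myosin heavy chain and the most specific of these genes for mature smooth muscle, was at 31.6, 20.9 and 26.3 CPM in WT and 22.9, 15.3 and 23.9 CPM in KO (chr16:14194527-14291408). The groups overlapped, with 2 of the 3 KO libraries above WT replicate 2. The log2 fold change was -0.34 ± 0.22 (SE, adjusted p = 0.6, edgeR), and the 95% interval of -0.85 to 0.16 includes 0. It was -0.19 without WT replicate 1, -0.20 without KO replicate 2, -0.52 without WT replicate 2 and -0.54 with total-count scaling. Cnn1, which encodes the actin-binding calponin 1, was the lowest gene, at 3.43, 2.11 and 2.06 CPM in WT and 1.76, 1.66 and 2.38 CPM in KO (chr9:22099281-22109630). KO replicate 3 was above 2 of the 3 WT libraries, and the log2 fold change of -0.40 ± 0.31 (SE, adjusted p = 0.653, edgeR) had an interval from -1.13 to 0.34. Without WT replicate 1 it was -0.12, and with total-count scaling -0.62.

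Summed over the 6 contractile genes, WT libraries were at 251, 210 and 237 CPM and KO libraries at 133, 132 and 175 CPM, which did not overlap, and Tagln and Des made up most of each sum. The sums of the B cell and mesothelial markers given above separated the groups in the opposite direction, and their part in the contractile result was not tested. Proportions among the contractile genes were then compared within libraries. Per kilobase, Tagln was 215%, 194% and 266% of Acta2 in WT and 147%, 138% and 177% in KO, without overlap (p = 0.1, exact two-sided permutation test, the smallest p that 3 against 3 libraries allow; 0.8 after Benjamini-Hochberg adjustment over the 8 ratios compared). Myh11 was 19.4%, 14.1% and 19.7% of Acta2 in WT and 27.6%, 13.4% and 21.7% in KO, with overlap (p = 0.6, exact permutation test). Acta2 was 679% to 1124% of Actg2 in WT and 788% to 1296% in KO (p = 0.6, exact permutation test).

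Pdgfrb, the receptor through which pericytes receive the EC-derived ligand, was at 22.3, 39.5 and 52.8 CPM in WT and 59.7, 43.1 and 70.7 CPM in KO (chr18:61045150-61085061, plus strand). WT replicate 1 was the lowest library, and WT replicate 3 was above KO replicate 2, so the groups overlapped. The log2 fold change was 0.60 ± 0.32 (SE, 95% interval -0.13 to 1.34, adjusted p = 0.544, edgeR). Cspg4, which encodes NG2, was at 4.21, 12.3 and 19.3 CPM in WT and 17.8, 13.4 and 20.4 CPM in KO (chr9:56865104-56899870). Here WT replicate 1 was again far below the other 5 libraries. The log2 fold change was 0.54 ± 0.47 (SE, adjusted p = 0.686, edgeR). Without WT replicate 1, the log2 fold change was 0.32 for Pdgfrb and 0.12 for Cspg4, and without WT replicate 3 it was 0.89 and 1.05, while limma-voom gave 0.88 for Cspg4. As given above, WT replicate 1 was also the lowest library for the summed fibroblast, alveolar type II and EC markers, and the part of this in the pericyte genes was not tested.

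Pericyte and contractile genes were set against each other in the same way. Per kilobase, Pdgfrb was 16.6%, 32.2% and 47.9% of Acta2 in WT and 87.1%, 45.6% and 77.9% in KO. The means were 32.2 ± 15.7% in WT and 70.2 ± 21.8% in KO (SD, n = 3 each). KO replicate 2 was just under WT replicate 3, so the groups overlapped (p = 0.2, exact two-sided permutation test, 0.8 after adjustment over the 8 ratios). Since this test cannot give a p below 0.1 here, it cannot decide whether the proportion differs. Cspg4 was 12.9%, 21.3% and 24.9% of Pdgfrb in WT and 20.3%, 21.1% and 19.7% in KO, so the proportion lay between 19.7% and 24.9% in 5 of the 6 libraries (p = 1, exact permutation test).

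Actb, the beta-actin of the cytoskeleton that is often used as a reference gene, was at 1808, 1610 and 1911 CPM in WT and 1256, 1194 and 1198 CPM in KO (chr5:142903115-142906754, minus strand). All KO libraries were below all WT libraries and close to each other. The means were 1776 ± 153 CPM and 1216 ± 34.7 CPM (SD, n = 3 each), and the log2 fold change was -0.55 ± 0.23 (SE, adjusted p = 0.477, edgeR's quasi-likelihood test), and DESeq2 gave -0.58 with an adjusted p of 0.027. Actg1, the cytoplasmic gamma-actin, was at 17.2, 12.2 and 21.4 CPM in WT and 28.0, 10.9 and 8.04 CPM in KO (chr11:120345690-120348542). KO replicate 1 was the highest and KO replicate 3 the lowest of all 6 libraries. Its log2 fold change of -0.12 ± 0.45 (SE, adjusted p = 0.94, edgeR) depended on single libraries, since it was -0.86 without KO replicate 1 and 0.20 without KO replicate 3.

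**Figure D3:**
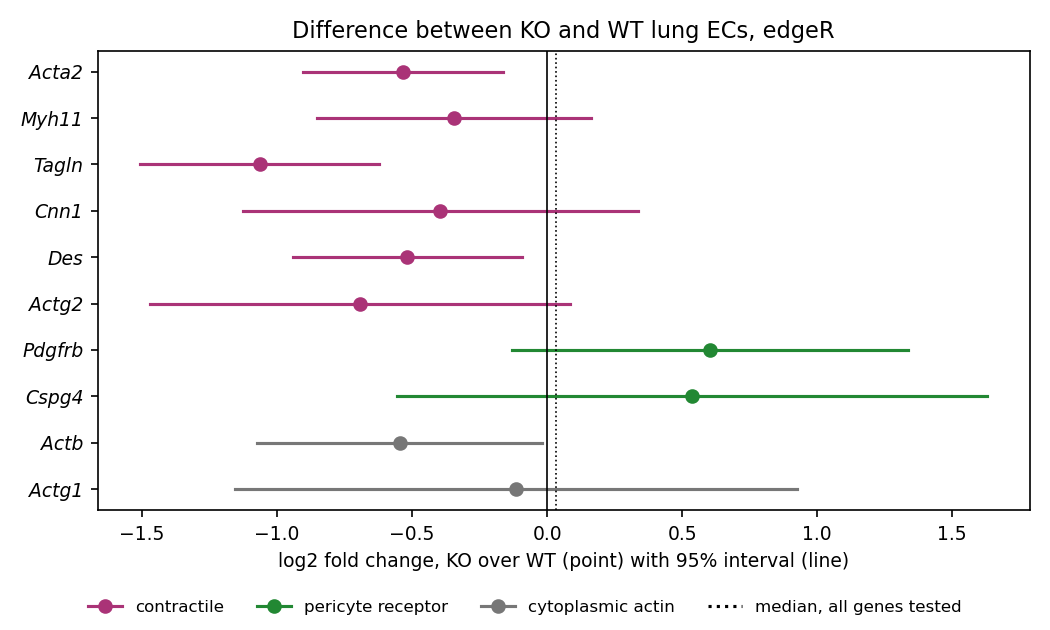
Log2 fold change of KO over WT for each of the 10 genes (point) with its 95% interval from edgeR's fit (line), colored by group, with a solid line at 0 and a dotted line at the median of all genes tested (0.03). The intervals of Acta2, Tagln, Des and Actb lie below 0, those of the other 6 genes include it, and no gene passed the threshold after adjustment over all genes.

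The contractile genes were then set against the cytoplasmic actins within each library, which removes any scaling between libraries. The mean log2 level of the 6 contractile genes minus that of Actb and Actg1 (CPM per kilobase) was -2.91, -2.80 and -3.32 in WT and -3.94, -3.13 and -2.52 in KO. The groups overlapped, and the KO libraries held both the lowest and the highest value. The KO mean was lower than the WT mean with a difference of -0.18, which is smaller than the SD within groups of 0.54, and the difference turned to 0.19 without KO replicate 1, the library with the highest Actg1. The ratio of Acta2 to Actb alone avoids Actg1. Acta2 was 3.64%, 3.73% and 2.82% of Actb per kilobase in WT and 2.67%, 3.86% and 3.71% in KO (p = 1, exact two-sided permutation test), with means of 3.40 ± 0.501% and 3.41 ± 0.648% (SD, n = 3 each). The proportion of Acta2 to Actb thus differed between the groups by far less than its spread, while the log2 fold changes of Actb and Acta2 on their own were -0.55 and -0.53.

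**Figure D4:**
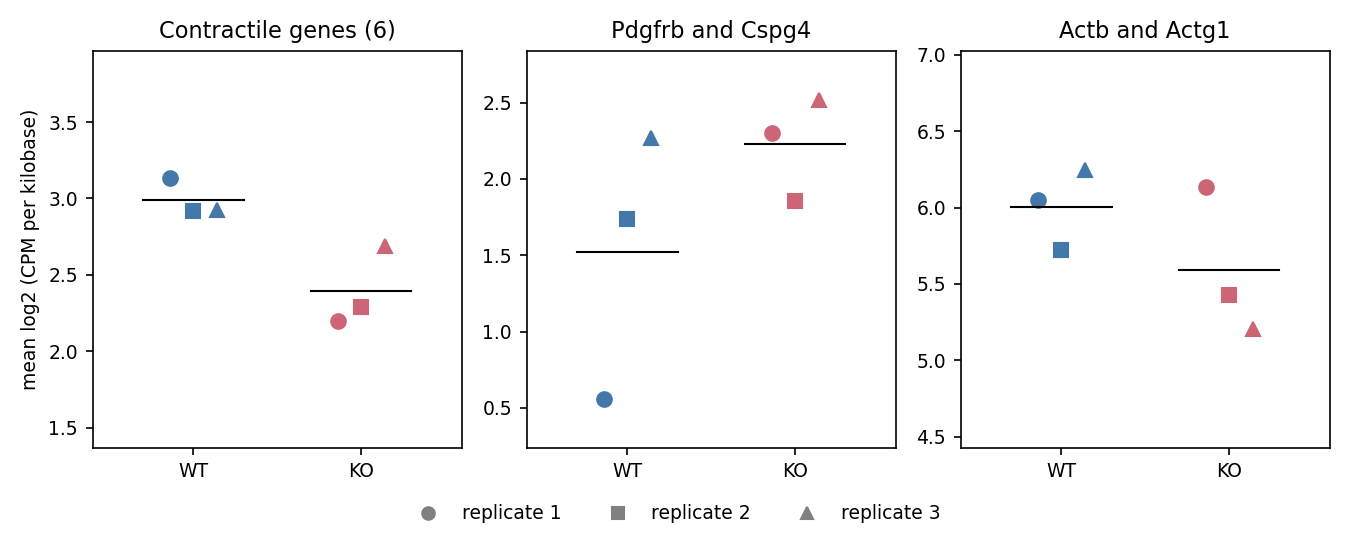
Mean log2 CPM per kilobase of the 6 contractile genes, of Pdgfrb and Cspg4, and of Actb and Actg1 in each library (blue, WT; red, KO; symbols for replicates 1 to 3; line, group mean), with panels of equal height in log2 units. The KO libraries are all below the WT libraries for the contractile genes (2.20 to 2.69 against 2.92 to 3.14), and the groups overlap in the other 2 panels.

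In the wider contractile program, averages in KO went both ways. Of 23 other contractile genes, 22 were tested, and 0 passed the adjusted threshold in edgeR or DESeq2, while at an unadjusted p under 0.05, 1 was higher and 1 lower. There were 10 with a higher and 12 with a lower average in KO, and the median log2 fold change was -0.06. Lmod1, the smooth muscle leiomodin that starts actin filaments, had the largest difference of the list, at 8.15, 7.19 and 9.69 CPM in WT and 4.51, 4.19 and 5.73 CPM in KO (log2 fold change -0.79, standard error 0.20, adjusted p = 0.287, edgeR), and its groups did not overlap. Itga8, an integrin of smooth muscle and alveolar fibroblasts, had 0.54 with overlapping groups, and Pcp4l1, the gene at an unadjusted p under 0.05 in the other direction, had 0.33. Mylk, the kinase that switches on smooth muscle myosin, and Cald1, the actin-binding caldesmon, took the most reads of the list (CPM, not corrected for length), with log2 fold changes of -0.25 and -0.23 and overlapping groups. Many of these genes are also transcribed in ECs and fibroblasts.

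Transcription of the contractile genes runs through serum response factor (Srf), which binds the CArG box with myocardin (Myocd) or the actin-sensing cofactors Mrtfa and Mrtfb. The list also held Elk1, Elk4 and Tead1. All 7 genes of this list had a lower average in KO, against 45.9% of all genes tested. The median was -0.20 on the log2 scale, with Mrtfb at -0.0038, and 0 passed the adjusted threshold in edgeR or DESeq2. Srf averaged 35.2 ± 1.96 CPM in WT and 30.1 ± 3.7 CPM in KO (SD, n = 3 each), without overlap but by a narrow margin between WT replicate 2 and KO replicate 1 (log2 fold change -0.23, standard error 0.13, adjusted p = 0.581, edgeR). Tead1, a partner of these factors, was the 1 gene at an unadjusted p under 0.05 (log2 fold change -0.78, adjusted p = 0.455, edgeR), with overlapping groups. Myocd, which is restricted to smooth and heart muscle, was low at 0.129 to 0.783 CPM. Promoter windows from RefSeq (GRCm38.p6, 250 bases before to 50 after the start) were examined for 5 of the 10 genes, namely Acta2, Cnn1, Des, Cspg4 and Actg1. Pdgfrb, on chromosome 18, was left out of this step. An exact CArG box stood in that of Actg1, starting 90 bases before the start site, and in 1.63% of all 32851 windows, and the absence of these letters from the other 4 windows says nothing about the factor.

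Among 34 partners of the actin filament, from profilin and the Arp2/3 complex to nonmuscle myosin, 30 had a lower and 4 a higher average in KO, and the median log2 fold change was -0.19. Again 0 passed the adjusted threshold in edgeR or DESeq2, and 2 were lower at an unadjusted p under 0.05 (Flna and Arpc4). Over all genes tested, 45.9% had a lower average in KO. KO libraries were all below WT libraries for 11 of the 34 and all above for 1, against 9.2% and 8.59% of all genes. Flna, the filament cross-linker filamin A, was at 246, 226 and 151 CPM in WT and 148, 128 and 156 CPM in KO (log2 fold change -0.53, standard error 0.21, adjusted p = 0.468, edgeR), with KO replicate 3 above WT replicate 3. Myh9, the nonmuscle myosin heavy chain, had -0.38 without overlap, and the severing protein gelsolin (Gsn) had 0.50 with overlap. Moesin (Msn), which ties filaments to the membrane, and thymosin beta 4 (Tmsb4x), which holds actin monomers, took the most reads of the list (CPM, not corrected for length) and had -0.16 and -0.15. Summed over the list, WT libraries were at 7752 to 7863 CPM and KO libraries at 6827 to 7308 CPM, which did not overlap. Of the other actin isoforms, the heart actin Actc1 was at 4.19, 9.92 and 9.97 CPM in WT and 5.24, 2.98 and 4.17 CPM in KO (log2 fold change -0.95, adjusted p = 0.46, edgeR). The skeletal muscle actin Acta1 had 13, 24 and 19 counts in WT and 7, 6 and 0 counts in KO (adjusted p = 0.516, edgeR), without overlap between the groups in CPM, and Actbl2, a beta-actin-like gene, had no counts in any library.

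Among the 16 other pericyte genes there were 12 higher and 4 lower averages in KO, with a median difference of 0.05 on the log2 scale and 0 past the adjusted threshold in edgeR or DESeq2. The 1 gene at an unadjusted p under 0.05 was Angpt1, the ligand of the EC receptor Tie2, at 11.8, 13.8 and 14.4 CPM in WT and 18.5, 16.5 and 24.5 CPM in KO without overlap (log2 fold change 0.58, standard error 0.18, adjusted p = 0.374, edgeR). Abcc9, a subunit of the potassium channel of pericytes, had 0.88, and vitronectin (Vtn), made by pericytes in many tissues, had 0.57, both with overlapping groups. The genes with the most reads (CPM, not corrected for length) were Postn, a matrix protein shared with fibroblasts, and Mcam, an adhesion molecule shared with ECs, with log2 fold changes of 0.50 and 0.08. Rgs5, a classical pericyte gene, was at 14.0 to 19.4 CPM in WT and 12.7 to 18.9 CPM in KO, the log2 fold change being 0.00 ± 0.20 (SE). Of the ligands of Pdgfrb, Pdgfb was at 58.1, 41.0 and 58.2 CPM in WT and 63.1, 44.8 and 62.7 CPM in KO (log2 fold change 0.12, standard error 0.20, adjusted p = 0.836, edgeR). Its list held Pdgfa, Pdgfb, Pdgfc, Pdgfd and the alpha receptor Pdgfra, so not only ligands of Pdgfrb. Of these 5 genes, 4 had a higher average in KO, with 0 at an unadjusted p under 0.05 and 0 called by DESeq2. The 10 fibroblast markers had a median of 0.16, with 8 higher, 2 lower and likewise 0 called by edgeR or DESeq2, or at an unadjusted p under 0.05.

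**Figure D5:**
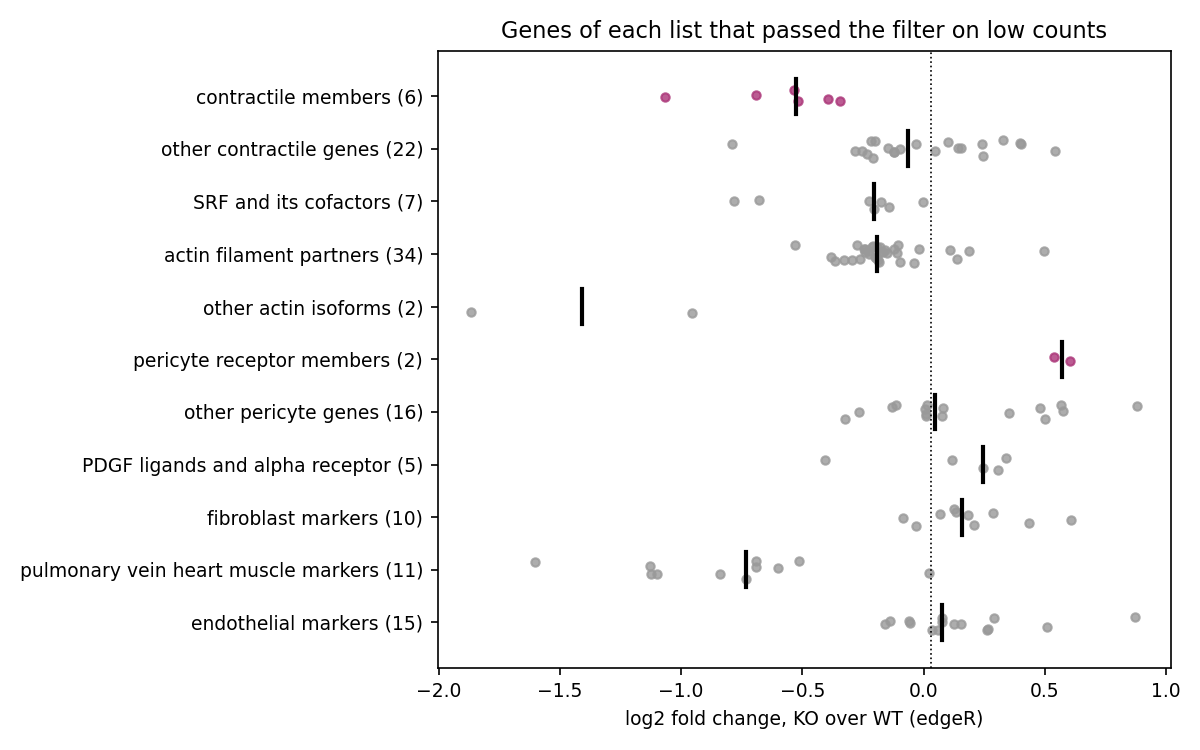
Log2 fold change of KO over WT for the genes of each list that passed the filter (points, with their number in parentheses), with the list's median as a vertical bar and the median of all genes tested (0.03) as a dotted line. The contractile genes described here have a median of -0.53 and the 22 other contractile genes one of -0.06, while Pdgfrb and Cspg4 have a median of 0.57 and the 16 other pericyte genes one of 0.05.

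The patterns of Acta2, Pdgfrb and Actb over the 6 libraries were compared with those of 11627 genes with a mean log2 CPM above 1, by the SD of the difference in log2 CPM, so that a smaller SD means a more constant ratio. The genes closest to Acta2 were Plekhg2 (SD 0.06), Hspb8, Serpinb6b, Ppp2r5b and Anxa2, the last of these with an SD of 0.11. The other contractile genes followed Acta2 less closely, with SDs of 0.29 for Cnn1, 0.30 for Des, 0.33 for Actg2, 0.35 for Tagln and 0.39 for Myh11, whereas Actb had 0.23 and rank 504. The genes closest to Pdgfrb were Esm1 (SD 0.11), H2-Q6, Itga1, Notch3 and Lama4, and Cspg4 had 0.32 and rank 168. For Actb they were Mical3 (SD 0.04), Prmt2, Ywhah, Ccnd2 and Ctla2b. With 6 libraries and 11627 genes, such closeness is a description of these libraries only.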

How the data were processed

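RNA of lung ECs from 3 WT and 3 leene-KO libraries was analysed. The authors deposited raw counts for each gene. Per the file headers, the counts were made with featureCounts of Subread 2.0.0 on the Ensembl release 84 annotation of GRCm38, over exons and on the reverse strand. The submitters' processing notes name bcl2fastq 2.18, STAR 2.5.4b and mm10. Symbols came from GENCODE's gene names (47224 of 47729 genes). No pair of libraries agreed within sampling noise. Poly(A) RNA was sequenced, so only polyadenylated transcripts are described. Each of the 10 genes had at least 35 counts in every library.

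Genotype was the only term in edgeR 4.0.16 (R 4.3.3), with filterByExpr, TMM factors from 0.874 to 1.37, the quasi-likelihood test and Benjamini-Hochberg adjustment over all genes tested, with a threshold of 0.05. The coefficient of variation between replicates was 0.256. Log2 levels use a prior count of 2, and a standard error (SE) is the log2 fold change divided by the square root of F. Ratios were compared by exact permutation tests, which cannot give a p below 0.1 here. The alternatives were DESeq2 1.42.0, limma-voom (limma 3.58.1), RLE, upper-quartile and total-count scaling, TMM without mitochondrial genes, no filter, at least 10 counts in every library, the replicate number as a block and each library left out. The code was tested on simulated data.

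The members and gene lists were chosen with earlier results of these data known. From the lists, genes past the adjusted threshold, the 3 with the largest fold change and the 2 with the highest CPM could be named (mean log2 CPM above 1). Pcp4l1, Arpc4, Rgs5, Myocd, Acta1 and Actbl2 were picked after their values were seen. Lists of mesothelial, macrophage, skeletal muscle and B cell markers had medians of 0.31, 0.42, -0.20 and 2.48 on the log2 scale.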

Additional observations from a re-analysis of the deposited data

How the results depend on the processing

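Over the 15 alternatives, 142 of the 150 log2 fold changes of the 10 genes kept their direction and their side of the adjusted threshold, 5 came to pass it and 3 changed direction. The number of the 10 genes called was 0 in the quasi-likelihood fit, 1 with total-count scaling, 1 without a filter on low counts, 2 with DESeq2 (187 genes in all), and 0 to 1 with a library left out, where 1 (Tagln) was called without WT replicate 2. At an unadjusted p under 0.05 it was 4, and 2 to 5 with a library left out. Actg1 changed direction without WT replicate 3 (0.06), KO replicate 2 (0.06) and KO replicate 3 (0.20), against -0.86 without KO replicate 1, and the cause was not tested. The difference in contractile minus cytoplasmic actin level of -0.18 ran from -0.52 to 0.19 with a library left out. Over all genes, 16 were called (5 higher, 11 lower), against 26 with RLE scaling, 31 with upper-quartile scaling, 123 with total-count scaling (61 higher, 62 lower), 152 without a filter on low counts, 26 with limma-voom, and 0 to 791 with a library left out, the 791 being without WT replicate 2. Total-count scaling moved the median of all genes from 0.03 to -0.13. With the replicate block, 0 of the 10 genes and 0 of all genes were called, and 5 of the 10 had an unadjusted p under 0.05. Libraries that share a number had correlations of -0.08, 0.22 and 0.01, and not every library correlated best with its own number, so the numbers were not taken to pair the libraries.

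The 95% intervals of Myh11, Cnn1, Actg2, Pdgfrb, Cspg4 and Actg1 include 0, so with 3 libraries per group a difference in these genes was not shown and is not excluded. Cnn1 and Actg2 rest on few counts, and reads shared with other loci limit Actg1. Groups of 3 are too small to test whether a library is an outlier.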
